A study of Mus musculus with 18 samples.

Results

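The genes of the proteasome were followed across 18 RNA sequencing libraries of mouse heart. Symbols of the Psma to Psmg families were taken where they had at least 30 counts summed over the 18 libraries, which gave 48 of the 25230 symbols in the table. A further symbol of that form, Psmb11, the thymus subunit, had 3 counts in all and was left out. The members nearest the threshold were Psma8, the germ cell alpha subunit, with 141 counts, and Psme2b, a near copy of the activator gene Psme2, with 323. The rule itself rests on the symbol and the summed level.

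All libraries came from male C57BL/6J mice with a myocardial infarction made by tying off the left anterior descending coronary artery, and every tissue was taken 3 days after that ligation. The mice had been given liraglutide, a drug that activates the receptor of the gut hormone GLP-1, or PBS as its control. The atria, the infarcted left ventricle (LV) and the non-infarcted LV were sequenced, so the 6 groups are atria, infarcted LV and non-infarcted LV, each with liraglutide or with PBS, and each holds 3 libraries that the labels call biological replicates. The sources used here give no dose, age or number of animals, and no uninjured heart was analysed here, so the non-infarcted LV is tissue of an infarcted heart.

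The proteasome is the protease that degrades proteins tagged with ubiquitin. Its core is a barrel of alpha rings around beta rings, and the beta rings hold the catalytic sites. A regulatory particle, made of a base with ATPase motors and a lid that removes ubiquitin, caps the core. In immune cells, and in other cells under interferon, the catalytic subunits Psmb5, Psmb6 and Psmb7 are replaced in newly made cores by Psmb8, Psmb9 and Psmb10, which gives the immunoproteasome, known for making peptides that are presented on MHC class I. Cardiac muscle relies on the proteasome for turnover of sarcomere proteins.

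Sequence before the start of 4 catalytic subunit genes is shown because these genes stand for the inducible and the constitutive set compared below. The sequences are those of RefSeq on GRCm38.p6, written in the direction of the gene with matches to a searched motif in capitals. Psmb8 and Psmb9 are cut to 30 bases, since their windows of 250 bases lie in a UTR of a GENCODE transcript. The Psmb5 sequence ends 28 bases before the start for the same reason, and its match begins 47 bases before the start.
Psmb8 (chr17:34198088-34198117, plus strand, gamma-activated site match): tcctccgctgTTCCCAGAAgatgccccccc
Psmb9 (chr17:34187331-34187360, minus strand, CCAAT box match): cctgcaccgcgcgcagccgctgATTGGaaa
Psmb5 (chr14:54618023-54618245, minus strand, antioxidant response element core match): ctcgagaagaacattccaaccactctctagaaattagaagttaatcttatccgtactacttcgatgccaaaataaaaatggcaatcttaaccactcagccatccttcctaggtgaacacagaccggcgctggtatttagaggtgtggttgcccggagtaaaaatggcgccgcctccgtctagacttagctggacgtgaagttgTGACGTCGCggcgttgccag
Psmb6 (chr11:70525107-70525356, plus strand, antioxidant response element core match): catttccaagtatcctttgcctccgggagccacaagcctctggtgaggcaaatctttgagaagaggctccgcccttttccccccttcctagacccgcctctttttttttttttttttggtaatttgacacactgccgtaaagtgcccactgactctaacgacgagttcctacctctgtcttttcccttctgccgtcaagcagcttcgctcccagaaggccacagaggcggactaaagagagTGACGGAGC

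The 250 bases before the start were searched on both strands in the 40 members with an entry. The gamma-activated site, TTCNNNGAA, a sequence of promoters that respond to interferon gamma, was found in Psmb8 and in Psmg1, 2 of the 40 members, and in 7.02% of 32851 promoters. In Psmb8 the match began 97 bases before the start. The antioxidant response element core, TGACNNNGC, a sequence bound by factors of the NRF family, was found in 5 members (Psmb5, Psmb6, Psmc6, Psmd12 and Psmd9) and in 10.2% of promoters. The interferon-stimulated response element core, GAAA and GAAA with 2 bases between them, was found in Psmb3, Psmd4 and Psmd9 and in 2.98% of promoters. The CCAAT box, written CCAAT, was found in 13 of the 40 members and in 33.9% of promoters. The windows of Psmb9 and Tap1, a subunit of the peptide transporter that feeds MHC class I, share 225 bases on opposite strands, and 1 CCAAT match lies in both.

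The genes of the catalytic pairs are spread over the genome (GENCODE vM21 on GRCm38). Psmb8 (chr17:34197721-34201454, plus strand) and Psmb9 (chr17:34181987-34187764, minus strand) lie in the MHC region beside Tap1. Psmb10 lies at chr8:105935735-105938444 on the minus strand, Psmb5 at chr14:54614119-54618022 on the minus strand, Psmb6 at chr11:70525367-70527858 on the plus strand and Psmb7 at chr2:38588036-38644087 on the minus strand. On the opposite strand Psmb8 overlaps Gm20496, Psmb10 overlaps Gm16156, Psmb7 overlaps Nek6 and Gm13586, and the activator genes Psme1 and Psme4 overlap Emc9 and Gm12103. Of the 48 members 18 overlap a gene on the opposite strand. The strand setting of the counting is unknown here, so reads of such partners cannot be told apart.

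Library totals ran from 4280459 to 21853482 counts, with a median of 11586459.5, and the shallowest library was infarcted LV with PBS, replicate 3. Levels of a gene in a library are given as CPM, its counts per 1000000 counts of that library. Markers of each region were present: atrial cardiomyocyte markers summed to at least 37123 CPM in atria and to at most 521 CPM in the LV. Of the atrial libraries, PBS replicate 2 carried 310 CPM of adipocyte markers, against at most 14.2 CPM in any other library, and liraglutide replicate 3 carried 1577 CPM of ventricular markers, against 76.5 to 587 CPM in the other liraglutide atria and 59.9 to 123 CPM in atria with PBS. T and NK cell markers stayed at or below 1.97 CPM in every library. Differences between groups are log2 fold changes with their standard error (SE) from edgeR's quasi-likelihood test on the counts with TMM scaling, with p adjusted by Benjamini-Hochberg over all genes tested. A member is called where its adjusted p is under 0.05.

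Members summed to 4276 ± 177 CPM (SD, n = 3) in non-infarcted LV with PBS, 3940 ± 97.5 in infarcted LV and 3414 ± 120 in atria. To compare genes, CPM was divided by the length of the longest principal transcript in kilobases. Lengths follow the annotation, and the order of the levels depends on them. On that scale the constitutive catalytic subunits Psmb6 (139 CPM per kilobase) and Psmb7 (135) had the highest levels of the 48 members in non-infarcted LV with PBS. Psmb5 stood at 58.3 CPM per kilobase. The inducible subunits were lower, at 24.4 CPM per kilobase for Psmb10, 6.18 for Psmb8 and 3.16 for Psmb9. The lowest member was Psma8, at 0.443 CPM per kilobase. With the merged exons of all transcripts as length, Psma6 of the alpha ring (92.9) and the ATPase gene Psmc3 (80.1) came first instead. Psmb6 then stood at 59.3, Psmb5 at 58.3, Psmb7 at 45.8, Psmb10 at 18.8, Psmb8 at 2.97 and Psmb9 at 1.17 CPM per kilobase, so the inducible genes stayed below the constitutive ones on both scales.

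In infarcted LV the inducible catalytic genes Psmb8 and Psmb9 were higher than in non-infarcted LV, and Psmb10 was not called. With PBS, 17 of the 47 members tested were called, 3 higher and 14 lower. Over all 12831 genes tested, 47.4% were called, 25.7% higher and 21.7% lower. With liraglutide, 15 members were called, 2 higher and 13 lower, where 49.8% of 13022 genes were called, 27.3% higher and 22.4% lower. The median log2 fold change of members was -0.15 with PBS and -0.12 with liraglutide, against -0.02 over all genes in each. Psma8 was too low to be tested in any comparison of regions or treatments.

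Psmb8, which encodes beta5i, the inducible chymotrypsin-like subunit, stood at 8.99, 10.6 and 10.5 CPM in the non-infarcted LV libraries with PBS and at 18.2, 21.3 and 30.1 CPM in infarcted LV. With liraglutide it stood at 9.40, 9.94 and 11.6 CPM in non-infarcted LV and at 24.4, 17.9 and 25.3 CPM in infarcted LV. Every infarcted library was thus above every non-infarcted one. Within PBS and within liraglutide such a gap held for 2 of 47 members and for 31.4% of all genes tested in each. Psmb8 rose by a log2 fold change of 1.12 (SE 0.17, edgeR adjusted p = 0.000112) with PBS and of 1.10 (SE 0.14, edgeR adjusted p = 1.18e-05) with liraglutide. Both calls held in all 14 alternative analyses of each comparison, with a lowest log2 fold change of 0.94.

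Psmb9, which encodes beta1i, stood at 2.64, 4.89 and 5.27 CPM in non-infarcted LV with PBS and at 6.98, 7.70 and 7.48 CPM in infarcted LV. With liraglutide it stood at 4.93, 3.18 and 5.17 CPM in non-infarcted LV and at 11.6, 7.15 and 12.8 CPM in infarcted LV. The groups did not overlap under either treatment, as for 31.4% of all genes tested in this direction in each. The liraglutide infarcts held the highest libraries. Psmb9 rose by a log2 fold change of 0.80 (SE 0.24, edgeR adjusted p = 0.0135) with PBS and of 1.23 (SE 0.22, edgeR adjusted p = 0.000432) with liraglutide. The PBS call was lost without infarcted replicate 2 or without non-infarcted replicate 1. Psmb9 lies on the strand opposite Tap1 and overlaps it, and Tap1 rose as well, by 1.20 with PBS.

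Psmb10, which encodes beta2i, was not called. It stood at 29.3, 37.7 and 29.0 CPM in non-infarcted LV with PBS and at 32.0, 35.7 and 33.2 CPM in infarcted LV, so the groups overlapped. Its log2 fold change was 0.03 (SE 0.10, edgeR adjusted p = 0.856) with PBS and 0.03 (SE 0.11, edgeR adjusted p = 0.843) with liraglutide.

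The constitutive catalytic genes were not called in the infarct. Psmb5, the chymotrypsin-like beta5 subunit, stood at 41.1, 59.1 and 56.9 CPM in non-infarcted LV with PBS and at 49.5, 46.2 and 40.2 CPM in infarcted LV (log2 fold change -0.24, SE 0.15, edgeR adjusted p = 0.217). Psmb6, the caspase-like beta1 subunit, stood at 107, 118 and 108 CPM against 109, 104 and 107 CPM (log2 fold change -0.11, SE 0.07, edgeR adjusted p = 0.243). Psmb7, the trypsin-like beta2 subunit, stood at 145, 167 and 158 CPM against 138, 148 and 153 CPM (log2 fold change -0.15, SE 0.08, edgeR adjusted p = 0.124). With liraglutide the log2 fold changes of these 3 genes lay between -0.14 and -0.07, and none was called. The lack of a PBS call rested on 1 library for Psmb5 and Psmb7. Without non-infarcted PBS replicate 1 the log2 fold change of Psmb5 was -0.41 (edgeR adjusted p = 0.00689) and that of Psmb7 was -0.22 (edgeR adjusted p = 0.0392).

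**Figure D1:**
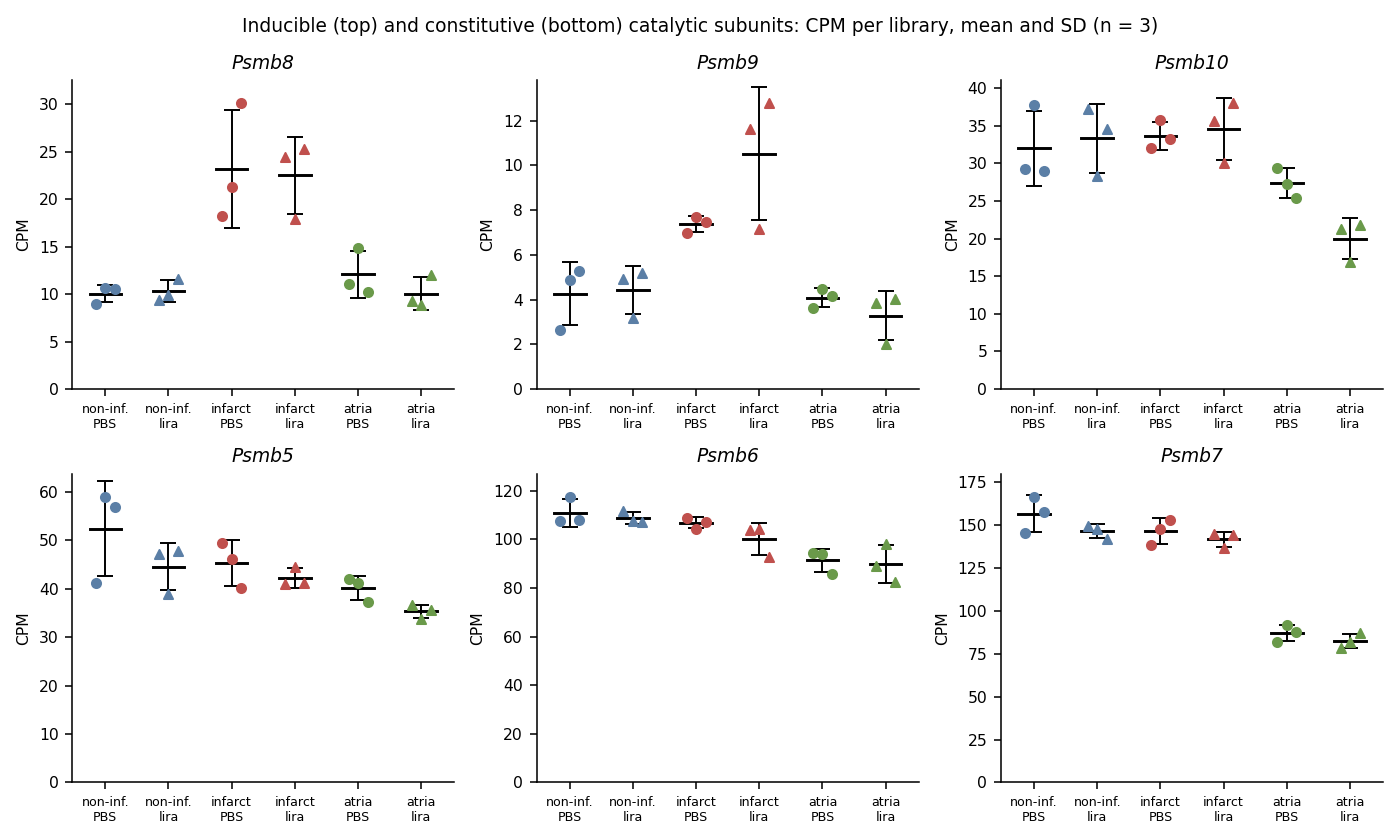
CPM of the 3 inducible (top row) and the 3 constitutive (bottom row) catalytic subunit genes in each library, by region and treatment (circles PBS, triangles liraglutide). Lines and bars are the mean and SD of 3 libraries, and Psmb8 lies at 17.9 to 30.1 CPM in the infarcted libraries and at 8.99 to 11.6 CPM in non-infarcted LV, while Psmb7 is lowest in the atria.

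Because an inducible subunit takes the place of its constitutive partner, the counts of each pair were compared within a library, which needs no scaling between libraries. Per 100 counts of Psmb5 there were 21.9, 17.99 and 18.5 counts of Psmb8 in non-infarcted LV with PBS and 36.8, 46.0 and 75 in infarcted LV. With liraglutide there were 19.97, 25.5 and 24.3 against 59.7, 40.2 and 61.4. Infarcted PBS replicate 3, the highest of these, is also the shallowest library, with 129 counts of Psmb8 and 172 of Psmb5. The log2 ratio of Psmb8 to Psmb5 was higher in infarcted LV by 1.28, a ratio 2.43-fold higher (1.37 with PBS and 1.19 with liraglutide). The two-sided exact permutation test within treatments over 12 libraries gave p = 0.005, the smallest it can give, and 0.0225 adjusted over 9 ratio tests. With medians in place of means the adjusted p was 0.06, and with the replicate number as a block it was 0.0703, for this ratio and for that of Psmb9 to Psmb6 alike. In both alternatives the unadjusted exact p was the smallest possible, 0.02 with medians and 0.03125 with the block.

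Per 100 counts of Psmb6 there were 2.46, 4.16 and 4.89 counts of Psmb9 in non-infarcted LV with PBS and 6.40, 7.39 and 6.97 in infarcted LV. With liraglutide the values were 4.42, 2.96 and 4.82 against 11.2, 6.87 and 13.8. The log2 ratio was higher in infarcted LV by 1.13, which is 2.19-fold (0.91 with PBS and 1.36 with liraglutide; exact permutation p = 0.005, adjusted p = 0.0225). Psmb10 per 100 counts of Psmb7 ran from 18.4 to 24.8 in non-infarcted LV and from 21.7 to 26.4 in infarcted LV, with a difference in log2 ratio of 0.14 (exact permutation p = 0.13, adjusted p = 0.234). With the 3 pairs summed, inducible counts per 100 constitutive counts were 14.4 ± 0.92 (SD, n = 3) in non-infarcted LV with PBS and 21.5 ± 2.15 in infarcted LV. With liraglutide they were 16.02 ± 1.71 and 23.8 ± 4.11.

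Per kilobase of principal transcript, Psmb8 made up 9.70% ± 0.94 (SD, n = 3) of the Psmb8 and Psmb5 pair in non-infarcted LV with PBS and 22.1% ± 6.41 in infarcted LV. Psmb9 made up 2.21% ± 0.70 and 3.92% ± 0.27 of its pair. Psmb10 made up 15.3% ± 1.35 and 16.9% ± 0.76. With the merged exons of all transcripts as length, Psmb8 made up 4.92% and 12.1%, and Psmb10 29.0% and 31.5%, so the share depends on the length used. A gene has the same length in all libraries, so the order of the libraries could not change with it. The constitutive gene held the larger share of each pair in these groups.

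**Figure D2:**
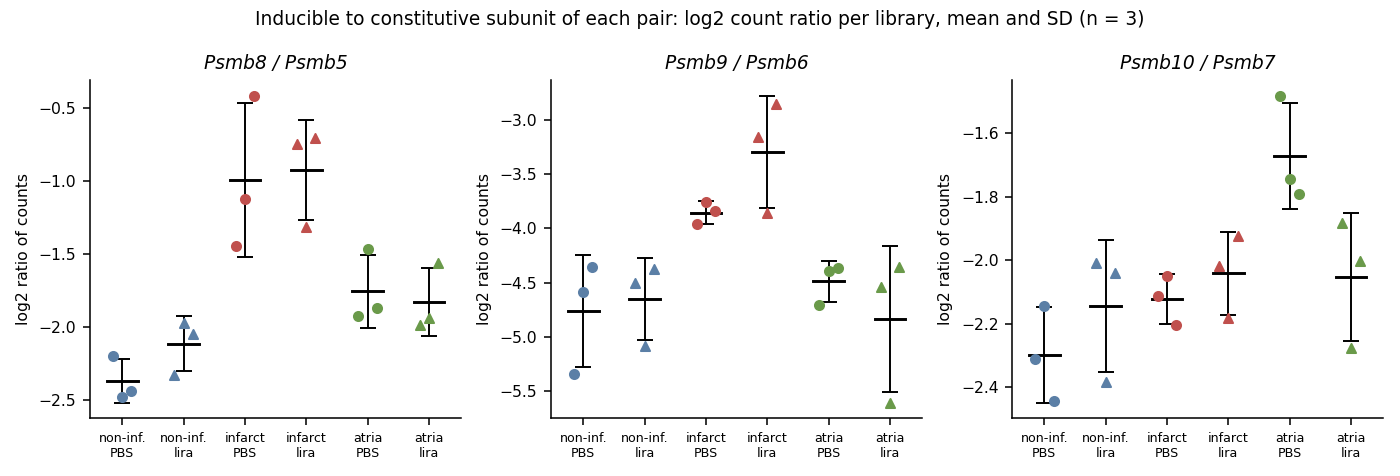
The log2 ratio of the counts of each inducible gene to those of its constitutive partner in each library, by region and treatment, with the mean and SD of 3 libraries. In infarcted LV the Psmb8 and Psmb9 ratios lie above those of non-infarcted LV in every library, and the Psmb10 ratios of these regions overlap.

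In the outer rings and the regulatory particle some genes fell in the infarct, by small amounts. Of 7 alpha ring genes 3 fell with PBS and 4 with liraglutide, and of 6 base ATPase genes 4 fell with each. Of 8 lid genes 3 fell with each, and of 4 structural beta genes 1 fell with PBS and 0 with liraglutide. None of these 25 genes was called higher. Over all genes tested, 21.7% were called lower with PBS and 22.4% with liraglutide. By the smallest p, the lower members with PBS were Psmd12 and Psmd7 and Psmd3 of the lid, the ATPase Psmc2, and the alpha subunits Psma1 and Psma4.

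Psmd12, the lid subunit Rpn5, stood at 118, 128 and 123 CPM in non-infarcted LV with PBS and at 93.7, 106 and 103 CPM in infarcted LV, and the groups did not overlap. It fell by 0.34 on the log2 scale (SE 0.08, edgeR adjusted p = 0.00188) with PBS and by 0.26 (SE 0.07, edgeR adjusted p = 0.00844) with liraglutide. Psmc2, the ATPase Rpt1, stood at 114, 121 and 111 CPM against 96.9, 97.9 and 94.6 CPM with PBS, and fell by 0.31 (SE 0.07, edgeR adjusted p = 0.0025). Psma1, the alpha6 subunit, stood at 112, 112 and 110 CPM against 88.2, 97.1 and 98.8 CPM, and fell by 0.29 (SE 0.07, edgeR adjusted p = 0.00507). With PBS the infarcted libraries of these genes were all below the non-infarcted ones, as they were for 14 of 47 members and for 21.6% of all genes tested.

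The log2 fold changes of Psmd7 (Rpn8, the partner of the deubiquitinase in the lid), Psmd3 (Rpn3) and Psma4 (alpha3) with PBS were -0.28, -0.24 and -0.23, each called. Psmd3 and Psma4 kept the PBS call in 10 of 14 alternatives each, losing it without infarcted replicate 1, and further without infarcted replicate 3 for Psmd3 and without non-infarcted replicate 2 for Psma4. With liraglutide Psmd7 fell by 0.35 (edgeR adjusted p = 0.00152), Psma4 by 0.28 and Psmc5, the ATPase Rpt6, by 0.29. Psmd12 and Psmd7 were called in all 14 alternatives of both comparisons. The number of calls with PBS moved with the processing. It fell from 17 to 8 with DESeq2, to 7 with scaling by library totals alone, to 9, 7 or 8 without infarcted replicate 1, 2 or 3, and to 8 without non-infarcted replicate 2. With liraglutide it fell from 15 to 8 without non-infarcted replicate 1. The share of all genes called in each of these runs is not given here, so a change particular to members cannot be told from a change across all genes. Scaling by library totals alone moved the share of higher calls over all genes from 54.2% to 62.5% with PBS, and members then numbered 3 higher and 4 lower.

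The other members of these groups lay close together. The base scaffold and ubiquitin receptor genes Psmd1, Psmd2 and Psmd4 had log2 fold changes of -0.11, -0.19 and -0.01 with PBS, and none was called. The structural beta gene Psmb2 fell by 0.20, while Psmb1, Psmb3 and Psmb4 lay between -0.13 and -0.05. Of the alpha ring Psma6 fell by 0.19, and Psma3 stood at -0.04. Psmc3, Psmc4 and Psmc5 fell by 0.20, 0.19 and 0.23, beside -0.17 and -0.18 for Psmc1 and Psmc6, which were not called. With the replicate number as a block, 4 further members were called lower: Psmc6 (log2 fold change -0.18, edgeR adjusted p = 0.0465), Psma5 (-0.20, edgeR adjusted p = 0.0442), Psmd2 (-0.19, edgeR adjusted p = 0.0427) and the lid gene Psmd6 (-0.19, edgeR adjusted p = 0.0344). These calls were not stable: of 14 alternatives 9 kept that of Psmc5, 7 those of Psma6 and Psmb2, 6 that of Psmc3 and 5 that of Psmc4. All were lost without infarcted replicate 2, infarcted replicate 3 or non-infarcted replicate 2. Without infarcted replicate 1 all but that of Psmc5 were lost, without non-infarcted replicate 3 those of Psma6, Psmc3 and Psmc4, and without non-infarcted replicate 1 that of Psmb2. All were kept with the replicate block.

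Members called in the infarct under both treatments numbered 13, of which Psmb8 and Psmb9 rose and 11 fell: Psma1, Psma4, Psma6, Psmc2, Psmc4, Psmc5, Psmd12, Psmd3, Psmd7, Psme4 and Psmf1. Of 12749 genes 40.4% were called in 1 direction under both. The sign was the same under both treatments in 44 of 47 members, and in 89.2% of the genes. These comparisons share no library.

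Activators and the inhibitor were mixed. Psme1 and Psme2 encode PA28 alpha and beta, a cap induced by interferon that opens the core without ATP. Psme1 stood at 111, 119 and 122 CPM in non-infarcted LV with PBS and at 125, 116 and 105 CPM in infarcted LV (log2 fold change -0.08, edgeR adjusted p = 0.507). Psme2 stood at 44.7, 50.1 and 46.3 CPM against 51.7, 57.0 and 49.8 CPM, with log2 fold changes of 0.12 with PBS (edgeR adjusted p = 0.253) and 0.22 with liraglutide (edgeR adjusted p = 0.0838). The PA28 genes therefore were not called where Psmb8 and Psmb9 were.

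Psme2b, the near copy of Psme2, stood at 1.12, 0.752 and 1.92 CPM in non-infarcted LV with PBS and at 1.79, 2.69 and 3.50 CPM in infarcted LV, groups that overlap. It was called higher with PBS (log2 fold change 1.00, SE 0.38, edgeR adjusted p = 0.0402) and not with liraglutide (0.28, edgeR adjusted p = 0.444). The PBS call was lost with DESeq2 and without infarcted replicate 2 or 3 or non-infarcted replicate 1 or 2, and reads that fit both genes could be split by the counting. Psme4, which encodes the large activator PA200, fell by 0.34 (SE 0.12, edgeR adjusted p = 0.0394) with PBS and by 0.35 (SE 0.09, edgeR adjusted p = 0.00458) with liraglutide. The PBS call of Psme4 was lost with library totals alone and without 4 of the 6 libraries in turn: infarcted replicate 1 or 2, or non-infarcted replicate 2 or 3.

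Psmf1, which encodes PI31, a protein that binds the core and inhibits it in vitro, stood at 24.0, 25.03 and 22.1 CPM in non-infarcted LV with liraglutide and at 17.0, 16.4 and 16.6 CPM in infarcted LV, with a wide gap between the groups. Groups apart in that direction were seen there for 23 of 47 members and for 26.4% of all genes tested. Psmf1 fell by 0.53 (SE 0.10, edgeR adjusted p = 0.000589), the lowest value of any member there. With PBS it fell by 0.31 (SE 0.12, edgeR adjusted p = 0.0469). Of the 7 assembly chaperones, which build the core and the base, 1 fell with PBS (Psmg2, log2 fold change -0.29, edgeR adjusted p = 0.042) and 0 with liraglutide. The PBS calls of Psmf1 and Psmg2 were each lost in 7 of 14 alternatives, among them without infarcted replicate 1, 2 or 3 and without non-infarcted replicate 2, and further without non-infarcted replicate 1 for Psmf1 and replicate 3 for Psmg2.

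**Figure D3:**
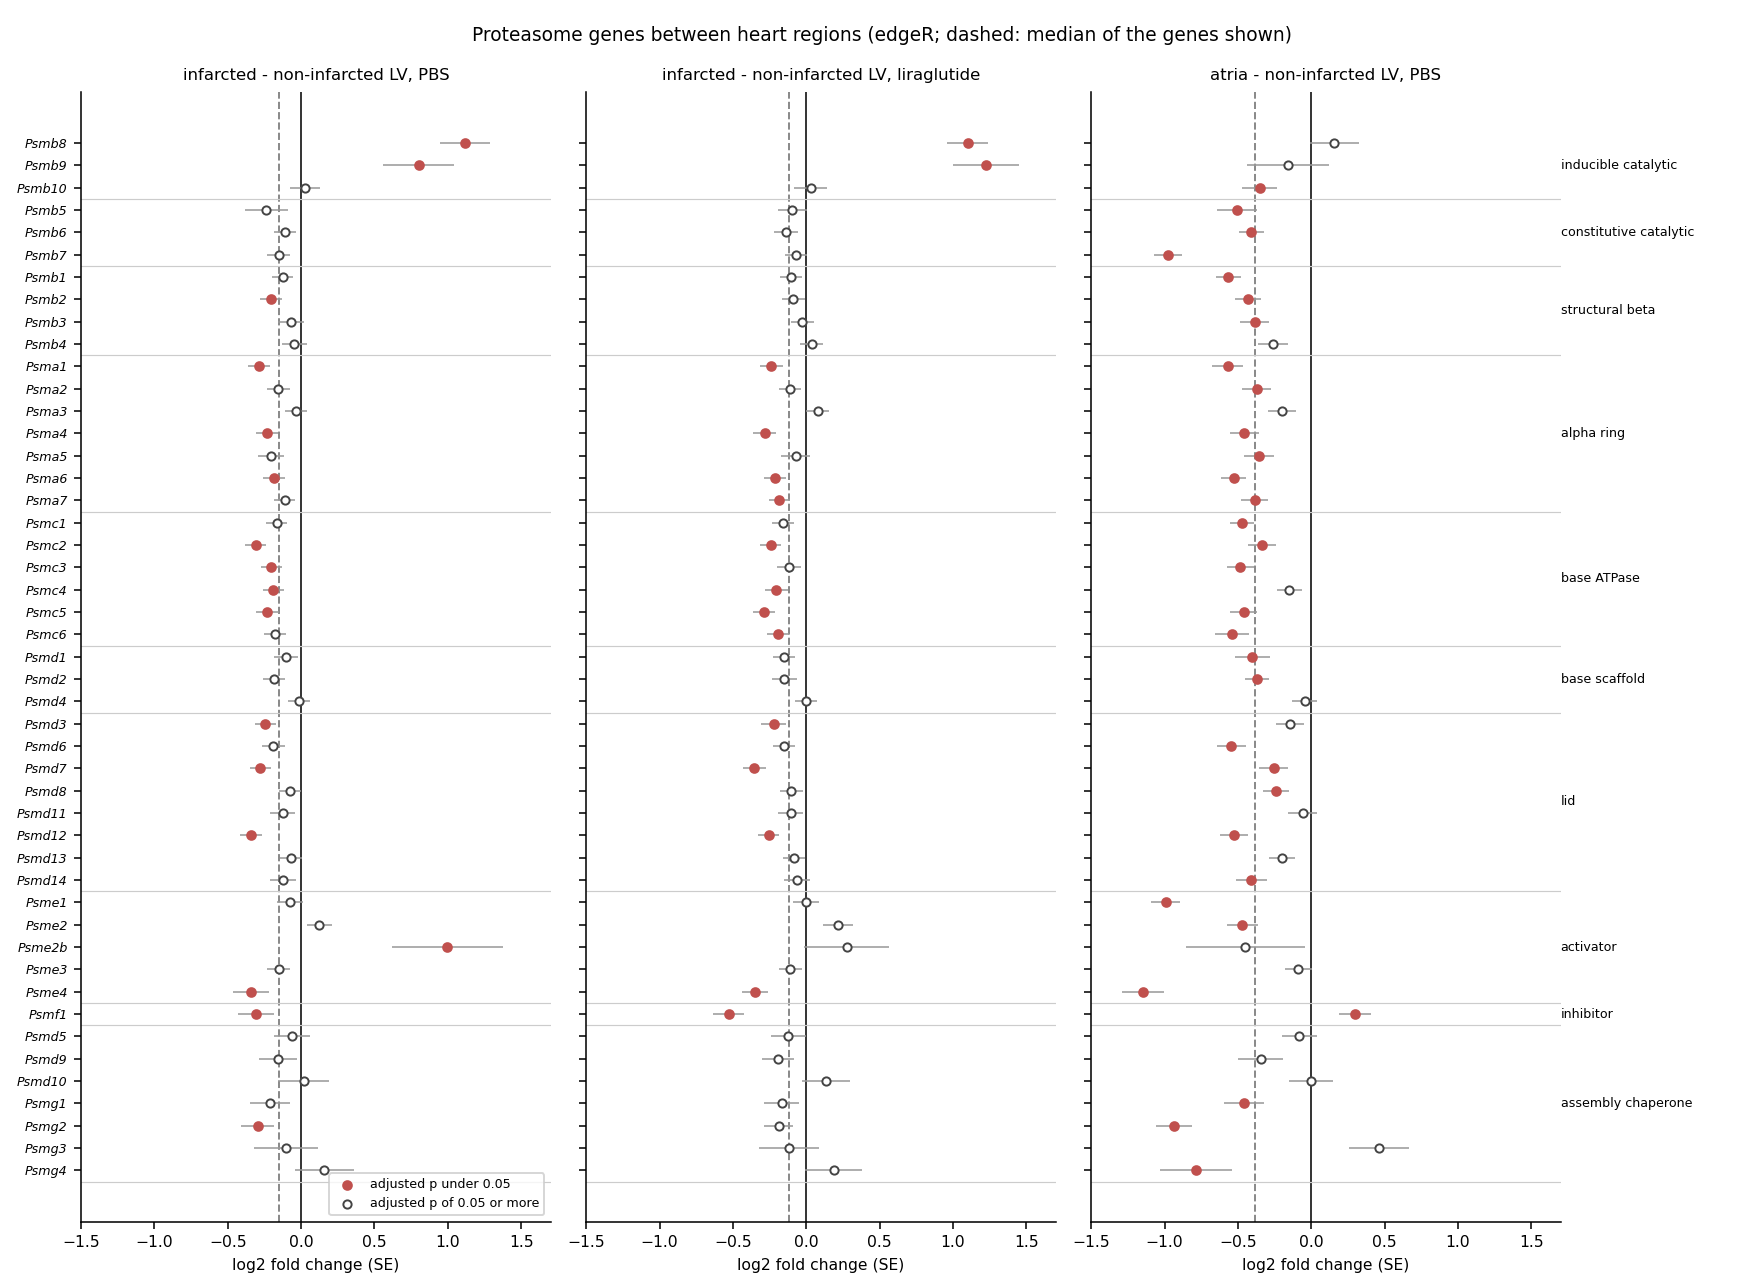
Log2 fold change with SE of the 47 members tested, grouped by role, for infarcted against non-infarcted LV with PBS and with liraglutide and for atria against non-infarcted LV with PBS. Filled points have an adjusted p under 0.05, dashed lines mark the median of the members (-0.15, -0.12 and -0.39), and Psmb8 and Psmb9 are the farthest to the right in the liraglutide infarct.

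Markers of cell types moved with these values. Over all genes tested, 25.7% were higher in the infarct and 21.7% lower with PBS, and 27.3% and 22.4% with liraglutide. With PBS, summed leukocyte markers ran from 54.6 to 74.9 CPM in non-infarcted LV and from 109 to 156 CPM in infarcted LV, and 6 of 8 rose with none lower. Of 6 macrophage markers 5 rose. All 5 endothelial and all 5 fibroblast markers rose, with medians of 0.94 and 1.39 on the log2 scale, and 5 of 6 cardiomyocyte markers fell, with a median of -0.42. With liraglutide 8 of 8 leukocyte and 6 of 6 macrophage markers rose, and 5 of 6 cardiomyocyte markers fell. Of 4 neutrophil markers 0 were called with PBS (median 0.92) and 4 rose with liraglutide (median 1.39), and the B cell markers tested rose, 1 of 1 with PBS and 2 of 2 with liraglutide. Defining markers of these types were above 0 in every group. The part of these changes in the fold changes of Psmb8, Psmb9 and the lower members was not tested, and in bulk tissue fewer cells of a type and less RNA per cell cannot be told apart.

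Between the atria and the non-infarcted LV, the members called were nearly all lower in the atria. With PBS, 32 of 47 members were called, 1 higher and 31 lower, where 51.8% of 13250 genes were called, 26.1% higher and 25.7% lower. With liraglutide, 22 were called, 0 higher and 22 lower, where 47.5% of 13431 genes were called, 24.6% higher and 22.9% lower. The median log2 fold change of members was -0.39 with PBS and -0.31 with liraglutide, against 0.00 and 0.01 over all genes. Scaling by library totals alone moved the median of all genes by 0.13 with PBS and the share of higher calls over all genes from 50.3% to 62.3%. On that scale members numbered 2 higher and 21 lower, with a median of -0.26. These comparisons use the same non-infarcted libraries as those of the infarct.

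The members with the smallest p in the atria with PBS were Psmb7, Psme1 and Psme4. Psmb7, the constitutive trypsin-like subunit, stood at 82.0, 91.5 and 87.8 CPM in atria with PBS, and fell by 0.98 (SE 0.09, edgeR adjusted p = 7.29e-06) from the LV values given above. Psme1 stood at 67.5, 62.7 and 63.9 CPM and fell by 0.99 (SE 0.10, edgeR adjusted p = 8.56e-06). Psme4 stood at 192, 233 and 259 CPM in atria against 400, 474 and 506 CPM in non-infarcted LV, and fell by 1.15 (SE 0.14, edgeR adjusted p = 6.51e-05). No atrial library of these genes reached the LV range. With PBS this held for 25 of 47 members and for 23.3% of all genes tested. With liraglutide the falls were 0.83, 0.74 and 0.88, and the calls held in all 14 alternatives under both treatments.

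Psmg2, the assembly chaperone PAC2, stood at 14.2, 13.2 and 14.4 CPM in atria with PBS against 22.9, 26.6 and 23.4 CPM, and fell by 0.94 (SE 0.12, edgeR adjusted p = 6.62e-05), and by 0.86 with liraglutide. Psmb1 (beta6) and Psma6 (alpha1) fell by 0.57 and 0.53 with PBS. With liraglutide Psma4 (alpha3) fell by 0.52 and Psmc6, the ATPase Rpt4, by 0.53. Psmf1 was the 1 member called higher, with 28.9, 28.0 and 28.4 CPM in atria against 21.8, 23.3 and 18.1 CPM (log2 fold change 0.30, SE 0.11, edgeR adjusted p = 0.0407). That call held in 5 of 14 alternatives and was lost without any 1 of the 6 libraries, and with liraglutide the value was 0.19 (edgeR adjusted p = 0.26).

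The constitutive subunits Psmb5 and Psmb6 fell as well with PBS, by 0.51 (SE 0.14, edgeR adjusted p = 0.0104) and 0.41 (SE 0.09, edgeR adjusted p = 0.00196). With liraglutide Psmb5 fell by 0.33, a call lost in 7 of 14 alternatives, and Psmb6 was not called (-0.27, edgeR adjusted p = 0.0945). Psme2, the partner of Psme1, fell by 0.47 with PBS and by 0.44 with liraglutide. Psme3, which encodes the nuclear activator PA28 gamma, was not called under either treatment (-0.09 and -0.14). Psmg4, an assembly chaperone at 2.60 to 5.27 CPM in these libraries with PBS, fell by 0.79 with PBS (lost without atrial replicate 2 or non-infarcted replicate 1 or 3) and by 1.05 with liraglutide. Psmg3, its partner, was not called (0.46 and 0.15).

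By role, 6 of 7 alpha ring genes, 3 of 3 constitutive catalytic genes, 5 of 6 ATPases, 5 of 8 lid genes and 3 of 5 activators fell in the atria with PBS. With liraglutide these counts were 5, 2, 3, 2 and 3. Over all genes tested, 25.7% were called lower in the atria with PBS and 22.9% with liraglutide. Members called under both treatments numbered 21, all lower, where 41.1% of 13131 genes were called in 1 direction under both. The sign was the same in 44 of 47 members and in 88.8% of the genes. Without atrial liraglutide replicate 3, the library with ventricular markers, 25 members were called, 3 higher and 22 lower. Without atrial PBS replicate 2, the library with adipocyte markers, 27 were called, all lower. For these runs the share of all genes called is not given here.

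With PBS the inducible genes did not share 1 direction in the atria. With liraglutide all 3 had negative log2 fold changes, from -0.74 to -0.04. Only Psmb10 was called, under each treatment. Psmb8 stood at 11.1, 14.9 and 10.2 CPM in atria with PBS, with a log2 fold change of 0.16 (SE 0.17, edgeR adjusted p = 0.451), and Psmb9 at 3.62, 4.46 and 4.15 CPM, with -0.16 (SE 0.28, edgeR adjusted p = 0.662). Psmb10 stood at 29.4, 27.3 and 25.4 CPM and fell by 0.35 (SE 0.12, edgeR adjusted p = 0.0287). With liraglutide Psmb10 stood at 21.3, 16.9 and 21.7 CPM and fell by 0.74 (SE 0.14, edgeR adjusted p = 0.00177). The PBS call of Psmb10 was lost with DESeq2, with library totals alone and without atrial replicate 2 or 3 or non-infarcted replicate 2. Summed leukocyte markers stood at 123 to 282 CPM in atria with PBS, and 7 of 8 were called higher than in non-infarcted LV. Of 4 neutrophil markers 4 were higher (median 3.63), and 3 of 6 cardiomyocyte markers were lower (median -0.44). Of 5 endothelial markers 3 were lower and 1 was higher (median -0.43, highest 0.88). Over all genes tested with PBS, 26.1% were higher in the atria and 25.7% lower. The part of these markers in the levels of the members was not tested.

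Per 100 counts of Psmb5 there were 26.4, 36.2 and 27.4 counts of Psmb8 in atria with PBS and 25.2, 26.1 and 33.8 with liraglutide. The log2 ratio was higher than in non-infarcted LV by 0.45, which is 1.36-fold (exact permutation p = 0.01, adjusted p = 0.03), 0.61 with PBS and 0.28 with liraglutide. With liraglutide the libraries of these regions overlapped. The adjusted call was lost without atrial liraglutide replicate 3, where the difference was 0.38, and without non-infarcted liraglutide replicate 1, where it was 0.40, and also with medians (0.33, adjusted p = 0.06) and with the replicate block (adjusted p = 0.0703). The Psmb9 to Psmb6 ratio differed by 0.04 (exact permutation p = 0.88). The Psmb10 to Psmb7 ratio was higher by 0.36 (exact permutation p = 0.025, adjusted p = 0.0563), 0.63 with PBS and 0.09 with liraglutide. Psmb7 and Psmb10 were both lower in the atria, by 0.98 and 0.35 with PBS and by 0.83 and 0.74 with liraglutide.

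Liraglutide against PBS gave no called member in any region. In atria 0 of 47 members were called, where 1 of 13530 genes was (0.00739%). In infarcted LV and in non-infarcted LV 0 members were called, and of all genes 0%. At an unadjusted p under 0.05 there were 1, 1 and 2 members in atria, infarcted and non-infarcted LV, while 6.86%, 5.24% and 4.34% of all genes passed that level. DESeq2 and limma's voom called 0 members as well, and the atria without the libraries with adipocyte or ventricular markers also gave 0. The median log2 fold change of members was -0.02, -0.03 and -0.05.

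The member with the smallest p in atria was Psmb10, at the CPM given above, with a log2 fold change of -0.36 (SE 0.13, edgeR adjusted p = 0.615). All 3 liraglutide libraries were below the 3 PBS libraries, as they were for 7 of 47 members and for 12% of all genes, of which 0.00739% were called. All 8 leukocyte markers had negative log2 fold changes in these atria, none of them called (median -0.66), and their part in the value was not tested. Psmc3, the ATPase Rpt5, and Psmd4, the ubiquitin receptor Rpn10, followed with 0.23 and 0.17. In infarcted LV Psmb9 was first, with 0.51 (SE 0.19, edgeR adjusted p = 0.903), and its libraries overlapped, since liraglutide replicate 2 lay at 7.15 CPM and PBS replicates at 6.98 to 7.70. Psmd14, the lid deubiquitinase Rpn11, and Psmd1, the scaffold Rpn2, followed with -0.18 and -0.14. In non-infarcted LV the first were Psmd14 (-0.24), Psma5 of the alpha ring (-0.21) and Psme1 (-0.16), each with an edgeR adjusted p of 0.999.

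The log2 pair ratios differed between liraglutide and PBS by 0.08 for Psmb8 and Psmb5 (exact permutation p = 0.558), 0.11 for Psmb9 and Psmb6 (p = 0.629, exact) and -0.05 for Psmb10 and Psmb7 (p = 0.627, exact). For Psmb10 and Psmb7 the value was -0.38 in atria, 0.08 in infarcted and 0.16 in non-infarcted LV. For Psmb9 and Psmb6 it was -0.35, 0.56 and 0.11, and for Psmb8 and Psmb5 -0.08, 0.07 and 0.25. Differences between the regions in these values were not tested. The difference of the liraglutide effect between infarcted and non-infarcted LV was called for 0% of 13920 genes, and 0 of 48 members had an unadjusted p under 0.05. Between atria and non-infarcted LV it was likewise called for 0%, with 1 member under 0.05, Psmb10 (log2 difference -0.39, edgeR adjusted p = 0.875). DESeq2 also called 0 members in each.

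**Figure D4:**
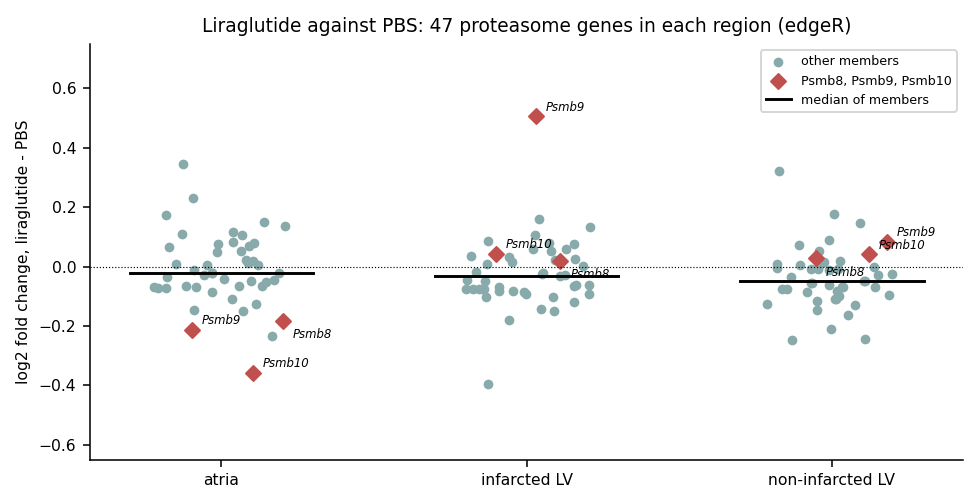
Log2 fold change of each of the 47 members tested, liraglutide against PBS, in atria, infarcted LV and non-infarcted LV. Horizontal bars are the medians of the members (-0.02, -0.03 and -0.05), diamonds are the inducible catalytic genes, and Psmb9 in infarcted LV (0.51) and Psmb10 in atria (-0.36) lie farthest out among the diamonds.

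Genes that act with the proteasome were read in the same fits. For all lists below, the shares over all genes tested were 25.7% higher and 21.7% lower in infarcted LV with PBS. They were 27.3% and 22.4% with liraglutide, and 26.1% and 25.7% in atria with PBS. Of 10 genes of antigen presentation and its interferon control, 7 were higher in infarcted LV with PBS and 9 with liraglutide, and none lower, with a median log2 fold change of 0.91 and 1.10. Irf1, an interferon-regulated transcription factor, stood at 22.8, 22.01 and 22.4 CPM in non-infarcted LV with PBS and at 94.7, 99.2 and 80.4 CPM in infarcted LV. It rose by 1.98 (SE 0.10, edgeR adjusted p = 2.95e-09). Tapbp, the peptide loading protein tapasin, rose by 0.55 and Tap2, the partner of Tap1, by 0.73. In the atria with PBS 5 of these 10 genes were higher and 1 lower.

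Among 6 ubiquitin genes and activating enzymes 3 rose in the infarct with PBS, among them the ubiquitin precursor genes Rps27a (0.38) and Ubb (0.38), and 3 with liraglutide, with 0 lower in either. Among 11 partners and maturation factors with PBS 1 rose, Zfand2a, a heat-inducible proteasome binder (0.54), and 5 fell, among them Ecpas (-0.39), a proteasome adaptor, and Usp14 (-0.27), a deubiquitinase of the base. Among 8 shuttle and unfolding genes 0 rose and 4 fell with PBS, where 25.7% of all genes rose and 21.7% fell. Among them were Ubqln4, which carries ubiquitin-tagged proteins to the proteasome, at -0.30, and the unfoldase Vcp at -0.22.

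Of the genes that control transcription of subunits, 2 rose and 2 fell among the 4 tested with PBS. Nfe2l1, the factor that raises subunit genes when the proteasome is impaired, stood at 847, 732 and 746 CPM in non-infarcted LV and at 615, 605 and 591 CPM in infarcted LV, and fell by 0.42 (SE 0.08, edgeR adjusted p = 0.000614). Ngly1, the enzyme that processes it, fell by 0.37. Nfe2l2, the oxidative stress factor NRF2, rose by 0.60. In the atria with PBS, 8 of 11 partners and maturation factors were lower and 1 higher. Of 5 control genes 2 were lower and 1 higher, where 25.7% of all genes were lower and 26.1% higher.

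**Figure D5:**
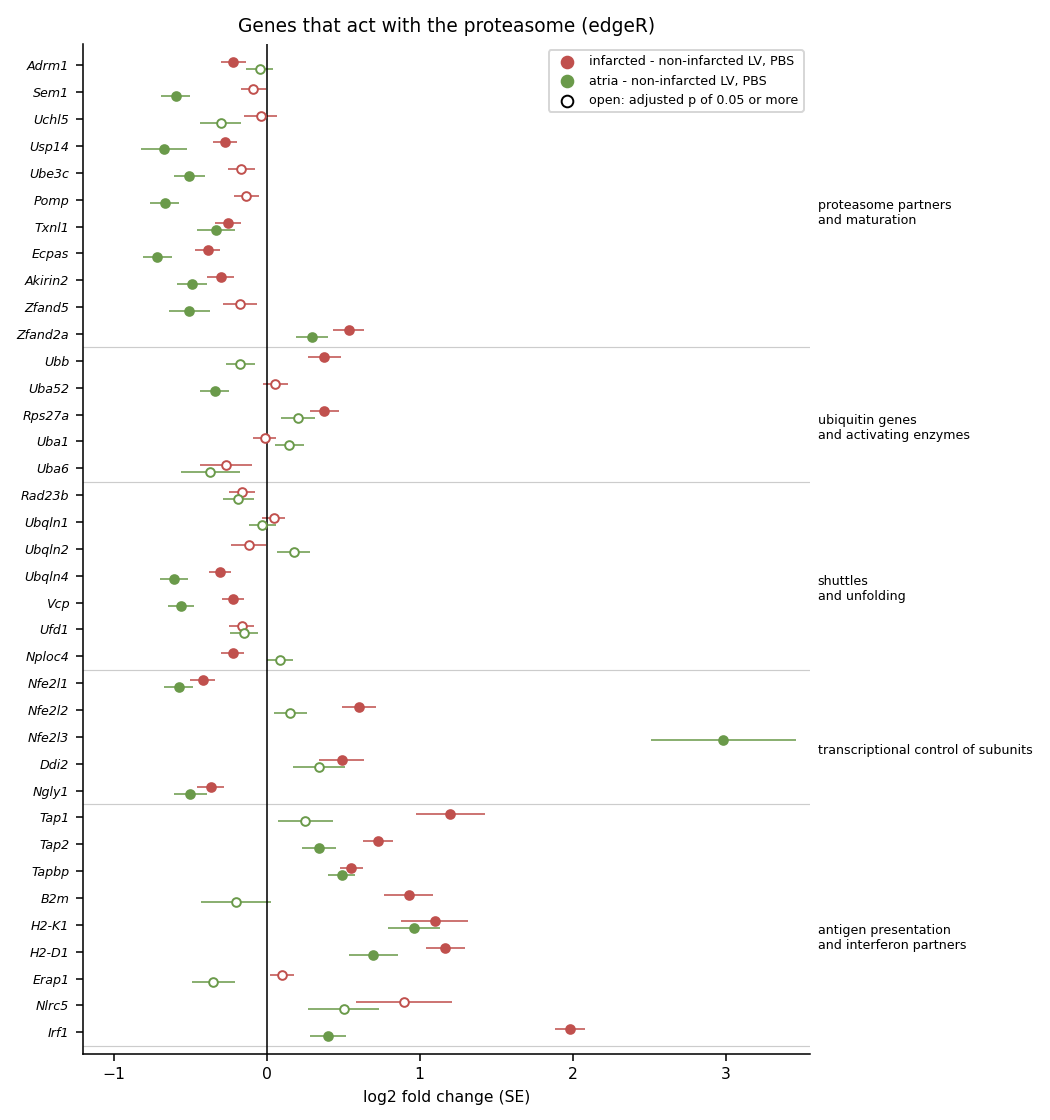
Log2 fold change with SE of genes that act with the proteasome, by list, for infarcted (red) and atrial (green) tissue against non-infarcted LV with PBS. Filled points have an adjusted p under 0.05, and Irf1 (1.98) is the farthest to the right of the infarct values.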

How the data were processed

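Bulk RNA sequencing of 18 libraries was analysed from a deposited table of raw counts per gene symbol, whole numbers that the authors made from reads. Per the labels' protocols, RNA was extracted with TRIzol and libraries were made with a stranded TruSeq mRNA kit. The submitters' processing notes name the mm10 build, the aligner STAR 2.7.9a and DESeq2 without a version. How reads were counted, with which annotation and strand setting, is not given in the sources used here.

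Members and gene lists were chosen with earlier results of these data known. For each comparison its 6 libraries were fitted with edgeR 4.0.16 under R 4.3.3 (TMM after filterByExpr on the groups, robust quasi-likelihood F test, Benjamini-Hochberg over all genes, threshold 0.05), and the liraglutide effects of regions were compared in a fit of all 18. The script was tested on simulated data. Named members were Psmb5 to Psmb10, Psme1, Psme2, those at the count threshold, up to 6 called members with the smallest p in each direction of a comparison of regions, 3 with the smallest p for liraglutide, and up to 3 genes of each pathway list. Of 97 list symbols 96 were found. A few genes of the pathway lists are not reported here by name. Pair ratios were tested by two-sided exact permutation within treatment or region, adjusted over 9 tests. Lengths and overlaps come from GENCODE vM21, promoters from RefSeq (GRCm38.p6), which had an entry for 40 members. Psmb7 was not among them.

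Alternatives were DESeq2 1.42.0, voom with quality weights (limma 3.58.1), RLE factors, library totals, other filters, all libraries in the fit, a replicate block, each library left out, and medians for ratios. The principal transcript length was added after seeing the data. Within groups, no pair of libraries agreed within sampling noise (chi-square per degree of freedom of at least 2.65). The labels do not say that replicates came from separate animals in each region, so p-values measure the spread between these libraries. Libraries with the same number deviated together in infarcted and non-infarcted LV with PBS (correlation across genes 0.135, 0.106 and 0.139), where the pairing comes from the labels' numbers, and the block gave 21 members (3 higher, 18 lower) in place of 17.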

Additional observations from a re-analysis of the deposited data

How the results depend on the processing

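With PBS the number of members called between infarcted and non-infarcted LV was 17, against 8 with DESeq2 and 7 with library totals alone, and between 7 and 16 with a library left out. With liraglutide it was 15, and between 8 and 13 with a library left out. These counts are given without the share of all genes called in the same runs. The counts between atria and non-infarcted LV stayed within 1.5 times, and those for liraglutide stayed at 0 in every alternative run. The same-numbered libraries passed the pairing check only for the infarct with PBS. There the block added the calls of Psma5, Psmc6, Psmd2 and Psmd6 and removed none. In the other comparisons, which did not pass that check, the replicate block moved the counts from 15 to 15 (infarct, liraglutide), 32 to 31 (atria, PBS) and 22 to 19 (atria, liraglutide). The check asked for every correlation between libraries of 1 number to be over 0.1. All 6 libraries correlated best with their own number in infarct with liraglutide and in atria with PBS. The lowest of these correlations were 0.0765 and 0.0843, against at most 0.00849 and -0.0238 between other numbers.

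With the replicate block, the pair ratios kept their differences of 1.28 and 0.45 (Psmb8 and Psmb5, infarct and atria) and 1.13 (Psmb9 and Psmb6, infarct), but the smallest p of 64 sign arrangements is 0.03125, which cannot pass adjustment over 9 tests here. With medians the differences were 1.31, 0.33 and 1.04, each with an exact permutation p of 0.02 and an adjusted p of 0.06. Several of the 400 arrangements share the largest difference of medians, so 0.02 is the smallest p possible there. It could not pass adjustment here either, so the lost calls do not speak to the size of the differences. The liraglutide difference of Psmb10 and Psmb7 was 0.0368 with medians, against -0.05 with means. The cause of that change of sign was not tested. With a library left out, the difference between atria and non-infarcted LV ran from 0.38 to 0.49 for Psmb8 and Psmb5, from -0.10 to 0.24 for Psmb9 and Psmb6, and from 0.30 to 0.41 for Psmb10 and Psmb7, which passed without atrial liraglutide replicate 2.

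For single genes, medians of members and pair shares per length, 2254 alternative values were counted as kept. For genes this meant the same direction and side of the threshold. For medians it meant a shift under the SD of the members' log2 fold changes, and for shares under the SD of the group. Of the rest 114 lost the call, 19 gained it and 86 moved, of which 72 were uncalled values that changed sign. No called value reversed. Depth limits the low members most: Psmb9 rests on 26 to 126 counts a library.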
